A study of Homo sapiens with 16 samples.

Results

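The 9 genes described here encode ligands and an enzyme with which tumour cells restrain lymphocytes and macrophages: CD274 (PD-L1), PDCD1LG2 (PD-L2), CD276 (B7-H3), NT5E (CD73), CD47, PVR (CD155), NECTIN2 (CD112), LGALS3 (galectin-3) and LGALS9 (galectin-9). They were taken by gene symbol, as a set put together with earlier results of these data known, and all 9 were found among the 28278 gene symbols of each library. RNA was counted in 16 libraries of the human melanoma cell lines A375 and SKMEL28. The question was what the transcription factor TFE3 contributes in a line in which its relative MITF was also edited and in a line in which it was not.

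The A375 groups were TFE3KO and wild type (WT), with 3 libraries each. The SKMEL28 groups were clone 13 and clone 3 of a line carrying both the MITF and the TFE3 edit (double knockout, DKO), with 3 libraries each, the line with the MITF edit alone (MITFKO, 3 libraries), and WT (1 library, labelled replicate 4). Every DKO library therefore shares the MITF edit with MITFKO. A375 was grown in DMEM and SKMEL28 in RPMI, and fresh medium was given 24 h before harvest. Replicates were separate flasks of a line or clone, so p-values measure the spread between flasks and not between independently edited clones. How many clones stand behind the MITFKO and A375 TFE3KO lines is not given in the sources used here.

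Checkpoint ligands are surface proteins that engage inhibitory receptors on immune cells. CD274 and PDCD1LG2 both bind the receptor PD-1 on T cells, and interferon gamma, acting through JAK kinases and IRF1, is the classic inducer of CD274. NT5E is an ectoenzyme that turns AMP into adenosine, which quiets T cells through adenosine receptors. PVR and NECTIN2 bind the inhibitory receptor TIGIT and the activating receptor CD226, CD47 signals to the phagocyte receptor SIRPA, and galectins bind sugars on receptors such as LAG3 and HAVCR2.

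Total counts ran from 17320855 to 31269126 per library. Levels are in CPM, the count scaled to library size with TMM factors, given as mean ± SD over 3 libraries unless each library is listed. TFE3 mRNA was at 9.69% of the A375 WT level in A375 TFE3KO, and in SKMEL28 at 62.4% of the MITFKO level in DKO clone 13 and 12.8% in DKO clone 3. MITF mRNA was 18.0 ± 0.775 CPM in A375 TFE3KO and 34.7 ± 4.04 CPM in A375 WT. It was 509.5 ± 29.9 CPM in MITFKO and 553.5 CPM in the single SKMEL28 WT library, which were not called different. Though MITF was not edited in A375, its mRNA stood in A375 WT at 0.0644 times the SKMEL28 WT level. Over MITFKO, MITF mRNA rose 1.75-fold in DKO clone 13 (adjusted p = 9.77e-10) and 1.57-fold in DKO clone 3 (adjusted p = 3.67e-08). RNA counts do not show whether an edit removed the protein, so the groups are called knockouts as labelled. The melanocyte marker SOX10 was abundant in every group, between 502.6 and 970.4 CPM on average, whereas TYR was at 0 in both A375 groups. The 11 genes examined as markers of the melanocyte lineage included AXL and the edited gene MITF. Summed over these 11, the level was 14900 CPM in SKMEL28 WT, 5700 to 5919 CPM in MITFKO and 1181 to 1246 CPM in A375 WT. In MITFKO against SKMEL28 WT, 1 of the 11 was called higher and 6 lower, while 25.2% of all genes were called higher and 23.4% lower. AXL and MITF were among those not called. The lymphocyte marker PTPRC was at 0 in all 6 A375 libraries and at most 0.227 CPM in SKMEL28. Replicate 2 of DKO clone 13 stood farthest from its group (chi-square per degree of freedom 21.9 and 23.3 against its fellows, from 3.20 to 7.14 for the other pairs), and member calls that change without it are given without it too. In bulk RNA, fewer cells making a transcript and less transcript per cell cannot be told apart.

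Promoter windows of 8 of the 9 genes were matched in RefSeq (GRCh38.p14), each covering 250 bases before and 50 bases after a start site, with 2 windows for CD276. PDCD1LG2 is the member without a match. Windows of 2 genes are shown because they held a motif described here and the genes differed in direction when TFE3 was edited: NT5E was higher in both lines, and NECTIN2 fell in A375 and rose in the mean of the DKO clones. Capitals mark the motif, the plus strand of the gene is written, and the windows lie at chr6:85449833-85450132 and chr19:44846047-44846346, both on the plus strand.
NT5E: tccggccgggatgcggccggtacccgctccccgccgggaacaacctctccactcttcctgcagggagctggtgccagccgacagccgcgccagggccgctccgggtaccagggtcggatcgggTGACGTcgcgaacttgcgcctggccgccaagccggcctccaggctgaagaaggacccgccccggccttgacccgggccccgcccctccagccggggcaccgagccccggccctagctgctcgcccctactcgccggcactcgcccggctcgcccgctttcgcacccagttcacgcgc
NECTIN2: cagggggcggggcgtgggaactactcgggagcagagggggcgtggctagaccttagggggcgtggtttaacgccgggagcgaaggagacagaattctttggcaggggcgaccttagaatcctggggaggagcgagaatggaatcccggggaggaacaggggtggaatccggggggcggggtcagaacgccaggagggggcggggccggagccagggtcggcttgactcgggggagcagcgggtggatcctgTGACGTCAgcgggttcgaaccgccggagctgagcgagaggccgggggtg

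In NT5E the capitals are TGACGT, the cyclic AMP response element (CRE) half-site, 127 bases before the start. In NECTIN2 half-sites on both strands overlap, at positions 2 and 4 after the start, and the capitals cover both. The half-site, which was added to the search after the sequences had been seen, was in 7.98% of the 35116 promoter windows of the table, counting both strands. The motifs of the factor family under study were in none of the 9 windows: CACGTG, the E-box that MITF and TFE3 share, was in 7.26% of all windows, CATGTG in 11.1%, and TCACGTG, which overlaps the E-box, in 3.71%. The AP-1 motif TGANTCA was in none of them either and in 7.71% of all windows. The 9 windows also differed in base composition. The LGALS9 window had 50.7% G and C with 2 CpG sites, against 57.3% and 22 CpG sites for CD274 and 79.0% and 45 CpG sites for CD47. These are matches of letters in short windows and say nothing on binding.

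**Figure D1:**
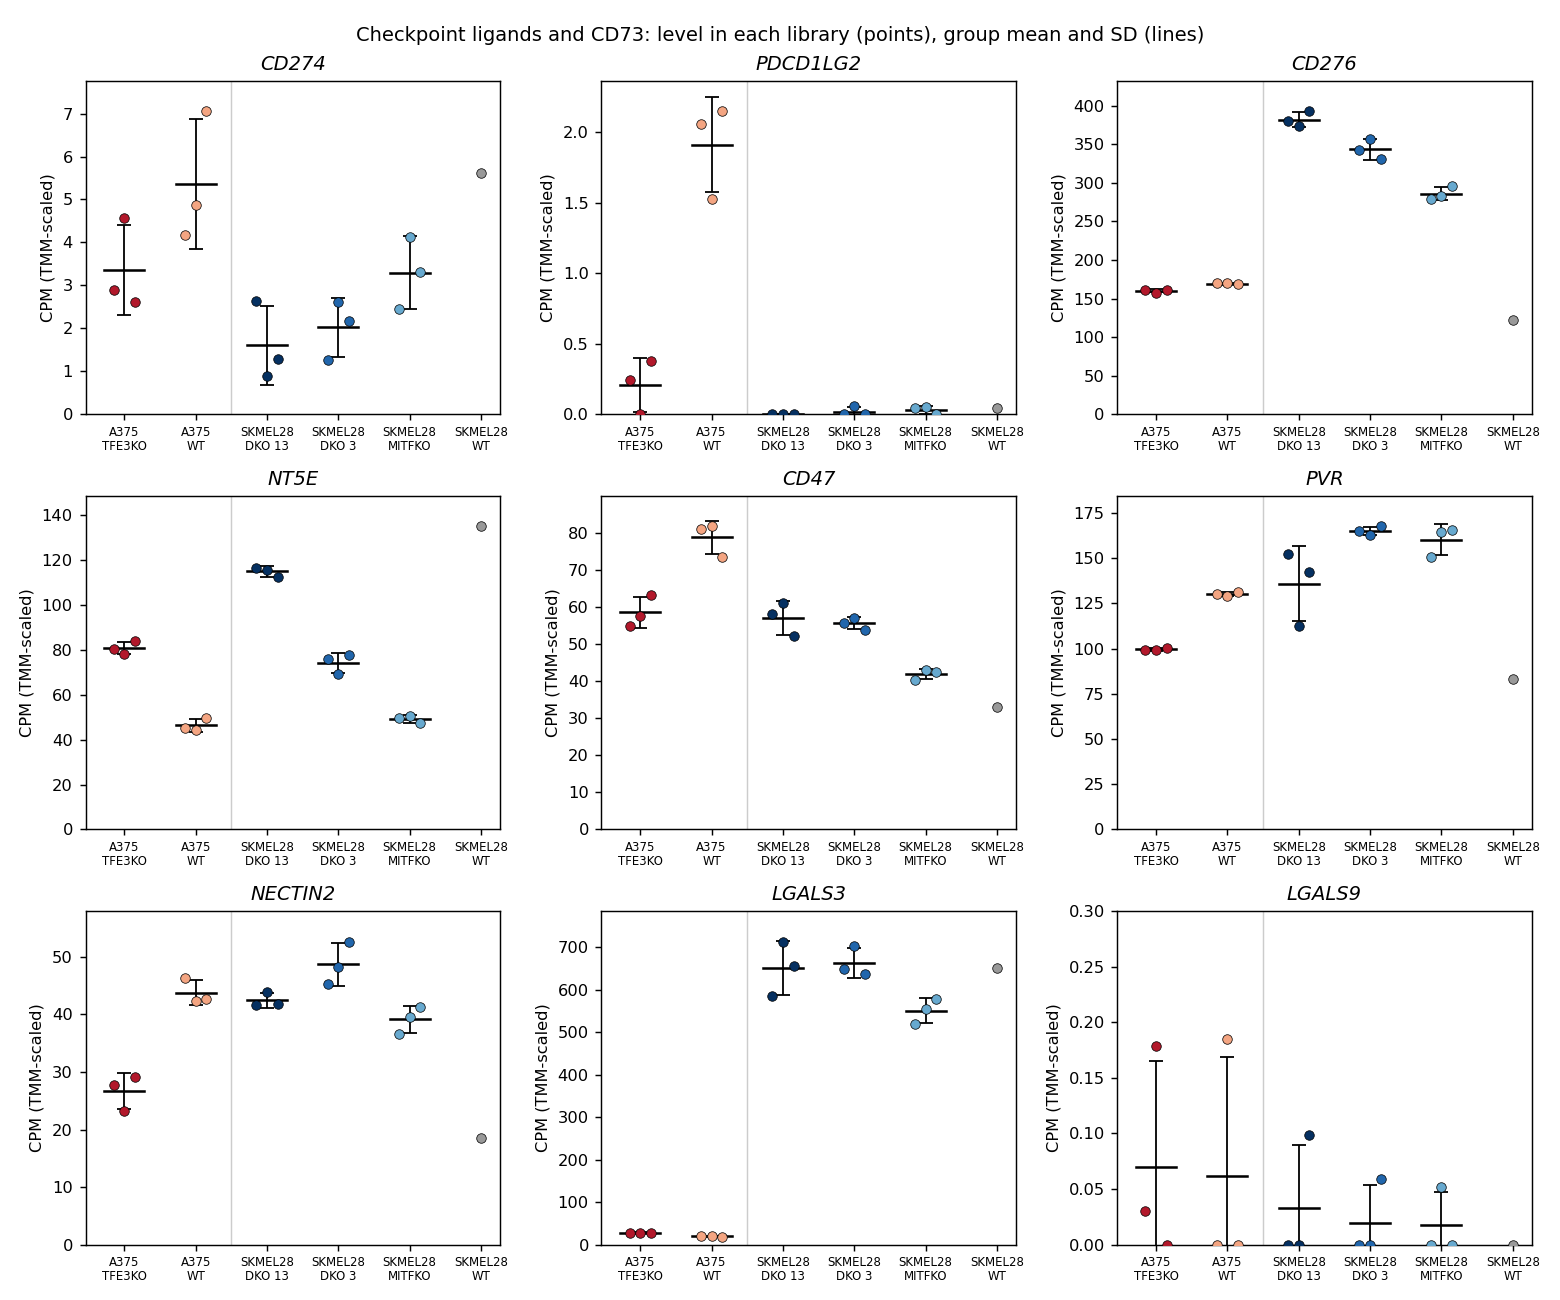
Level of each of the 9 genes (TMM-scaled CPM, linear axes from 0) in every library. Points are libraries, horizontal lines group means and bars SD, and SKMEL28 WT is a single library. NT5E was higher in A375 TFE3KO than in A375 WT and in both DKO clones than in MITFKO, and was highest in SKMEL28 WT. CD47 was lower in A375 TFE3KO than in A375 WT and higher in both DKO clones than in MITFKO.

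Editing of TFE3 was followed by different sets of changes in the 2 lines. In A375 TFE3KO, 2 of the 8 genes tested rose and 5 fell, or 7 called genes, while 43.3% of all 14012 genes tested were called (21.3% higher and 22% lower). The 5 include PDCD1LG2, which had enough counts for a test only through the WT libraries, where it was high. A gene was called when its adjusted p (edgeR quasi-likelihood test, Benjamini-Hochberg over all genes) was under 0.05. In SKMEL28, DKO clone 13 had 4 genes higher and 2 lower than MITFKO among 7 tested, against 40.7% of all 14605 genes called (20.5% higher and 20.2% lower). DKO clone 3 had 5 higher and 0 lower, against 35.9% of all genes called (18.2% higher and 17.6% lower). With both clones averaged, 5 were higher and 1 lower, against 41.1% of all genes called (20.4% higher and 20.7% lower). Called genes were common among all genes in each comparison, and 2 of 9 members had too few counts to be tested in SKMEL28.

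NT5E and LGALS3 rose in every one of these comparisons, NT5E by more. In A375 it stood at 80.6, 78.3 and 83.8 CPM in TFE3KO, against 45.0, 44.4 and 49.6 CPM in WT. In SKMEL28 it stood at 116.7, 115.8 and 112.4 CPM in DKO clone 13 and 75.7, 69.3 and 77.7 CPM in DKO clone 3, against 49.5, 50.7 and 47.5 CPM in MITFKO. No edited library overlapped its comparison group. The rise was 1.75-fold in A375 (log2 0.81 ± 0.06 SE, adjusted p = 6.22e-17), 2.33-fold in clone 13 (log2 1.22 ± 0.07, adjusted p = 4.43e-12) and log2 0.59 ± 0.07 in clone 3 (adjusted p = 5e-07). The effect in SKMEL28, averaged over both clones, minus that in A375 was 0.11 on the log2 scale (95% interval -0.06 to 0.28, adjusted p = 0.334). Clone 13 was 1.55-fold above clone 3 (adjusted p = 1.97e-07). TFE3 mRNA was also higher in clone 13, and its part in the difference was not tested.

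Of the other genes of adenosine handling, 71.4% were called in A375 TFE3KO, against 43.3% of all genes, and 28.6% in the DKO clones averaged, against 41.1% of all genes. In A375 TFE3KO, 2 of the other 14 genes tested on this list rose and 8 fell, with a median log2 fold change of -0.33 against 0.003 over all genes. The phosphatase gene ACP3 and ENPP2, which encodes autotaxin, rose 3.05-fold and 3.04-fold, and the adenosine receptor ADORA1 fell to 0.568 times the WT level. In DKO clones averaged against MITFKO, 3 of 14 rose and 1 fell, the median being 0.17 against -0.01 over all genes. ENPP1, which hydrolyses extracellular nucleotides, rose 1.33-fold, and ENTPD1 (CD39), which produces the AMP that NT5E uses, fell to 0.754 times the MITFKO level. By clone, the fall of ENTPD1 was called in clone 13 (0.666 times, adjusted p = 5.9e-05) and not in clone 3 (0.853 times, adjusted p = 0.0757).

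CD274 was low in all groups and lower on average where TFE3 was edited. In A375 it stood at 2.90, 4.56 and 2.61 CPM in TFE3KO, against 4.16, 4.87 and 7.05 CPM in WT, from 48 to 151 counts per library. The groups overlapped, and the fall was to 0.628 times the WT level (log2 -0.67 ± 0.22, adjusted p = 0.0122). This call was lost without A375 WT replicate 3 (log2 -0.43, adjusted p = 0.189), A375 TFE3KO replicate 1 (adjusted p = 0.055) or A375 TFE3KO replicate 3 (adjusted p = 0.05), and over all alternatives the adjusted p ran from 0.00243 to 0.189.

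In SKMEL28, CD274 stood at 2.64, 0.886 and 1.28 CPM in DKO clone 13 and 1.27, 2.61 and 2.18 CPM in DKO clone 3, against 2.45, 4.14 and 3.30 CPM in MITFKO. Replicate 1 of clone 13 and replicate 2 of clone 3 lay above the lowest MITFKO library, so the groups overlapped. Clone 13 fell to 0.481 times MITFKO (log2 -1.06 ± 0.37, adjusted p = 0.0249), and clone 3 gave log2 -0.70 (95% interval -1.45 to 0.04, adjusted p = 0.138). The clone 13 call was lost without MITFKO replicate 2 (adjusted p = 0.122) or 3 (0.0644), without clone 13 replicate 2 (0.0756) or 3 (0.0892), and without replicate 2 of both clones (0.0585). Over all alternatives its log2 fold change ran from -1.60 to -0.76 and its adjusted p from 0.00198 to 0.122. The mean of both clones gave log2 -0.88 (adjusted p = 0.0244), a call lost without MITFKO replicate 2 (0.158) or 3 (0.0742) or clone 3 replicate 1 (0.0594). Clone 3 was called without replicate 2 of both clones (0.0243).

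PDCD1LG2, the second PD-1 ligand, was measurable in A375 and had almost no counts in SKMEL28. It had 8, 0 and 7 counts in A375 TFE3KO, against 45, 33 and 46 counts in A375 WT, or 0.245, 0 and 0.381 CPM against 2.06, 1.53 and 2.15 CPM. The groups did not overlap, and the gene fell (fitted log2 -3.19 ± 0.54, adjusted p = 2.69e-06). It passed the filter on low counts through the WT libraries, and with so few counts in TFE3KO the size is loose, from -3.71 to -2.65 over the alternatives. The SKMEL28 groups held 0 counts in DKO clone 13, 1 in DKO clone 3, 2 in MITFKO and 1 in WT, so no change could be measured there and the effect of TFE3 editing cannot be compared between the lines. A375 WT exceeded SKMEL28 WT 45.4-fold (95% counting interval 7.995 to 1806). It exceeded a floor of 3 counts, summed over the 3 libraries of DKO clone 13, 37.0-fold. With the 0 counts found in that clone, the lower end of the 95% counting interval was 29.7-fold. Because PCR copies were not marked, these bounds cover counting error only.

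CD276, an abundant B7 family member whose receptor is not settled, was raised in DKO but not called in A375. It stood at 380.0, 373.1 and 392.4 CPM in DKO clone 13 and 342.9, 357.2 and 330.3 CPM in DKO clone 3, against 278.6, 283.4 and 296.0 CPM in MITFKO, with no overlap. The rise was 1.33-fold in clone 13 (adjusted p = 1.82e-06) and 1.20-fold in clone 3 (adjusted p = 0.000584). In A375 the means were 159.8 ± 2.00 CPM in TFE3KO and 169.3 ± 0.983 CPM in WT, without overlap (log2 -0.08, 95% interval -0.16 to -0.00296, adjusted p = 0.0875). The SKMEL28 effect minus the A375 effect was 0.43 ± 0.06 on the log2 scale (adjusted p = 1.93e-06). That test called 4 of 8 members, all higher in SKMEL28, against 37.7% of all genes (18.5% higher). The 8 include PDCD1LG2, which had almost no counts in SKMEL28 and could not be compared (95% interval -13.1 to 16.2).

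Among other B7 family genes, NCR3LG1, which encodes a ligand of the natural killer cell receptor NKp30, fell in both lines. It fell to 0.692 times WT in A375 TFE3KO and to 0.607 and 0.603 times MITFKO in DKO clones 13 and 3. VSIR, the inhibitory molecule VISTA, rose 1.97-fold in A375 TFE3KO, at 7.69 ± 0.738 CPM against 3.93 ± 0.482 CPM in WT, and averaged at most 0.0383 CPM in the SKMEL28 groups. Of the 7 other B7 genes tested in A375, 2 rose and 1 fell, and of the 6 in the DKO clones averaged, 0 rose and 1 fell. The share called was 42.9% in A375, against 43.3% of all genes, and 16.7% in DKO, against 41.1% of all genes, so it was near or below the background.

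**Figure D2:**
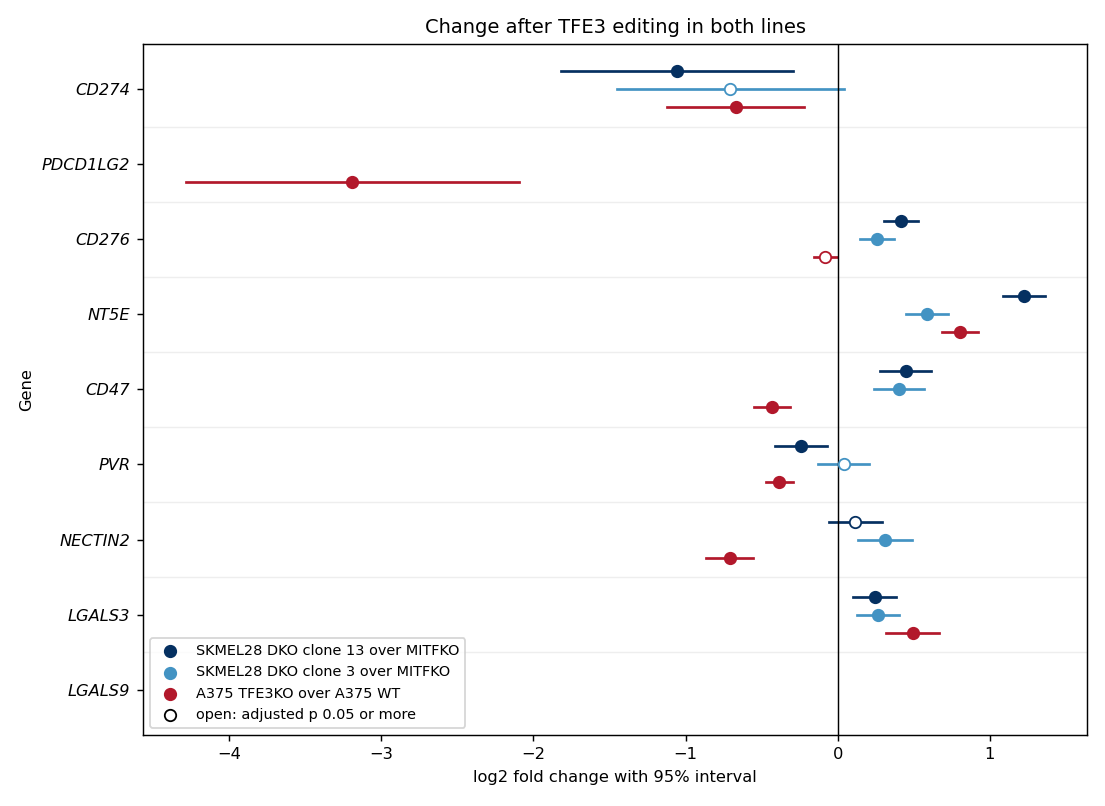
Log2 fold change after TFE3 editing, with 95% intervals, in SKMEL28 DKO clone 13 and clone 3 over MITFKO and in A375 TFE3KO over WT. Filled points were called. NT5E and LGALS3 lie to the right of 0 in all 3 comparisons, and CD47 lies right of 0 in SKMEL28 (0.45 and 0.40) and left of it in A375 (-0.43).

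CD47 moved in opposite directions in the lines. It stood at 54.8, 57.7 and 63.2 CPM in A375 TFE3KO, against 81.0, 81.8 and 73.6 CPM in WT, and fell to 0.742 times WT (adjusted p = 1.93e-08). In SKMEL28 it stood at 58.1, 61.2 and 52.2 CPM in DKO clone 13 and 55.8, 57.2 and 53.9 CPM in DKO clone 3, against 40.3, 43.1 and 42.4 CPM in MITFKO, rising 1.36-fold (adjusted p = 0.000107) and 1.32-fold (adjusted p = 0.000427). None of the groups overlapped its comparison group. The difference between the effects was 0.86 ± 0.10 on the log2 scale (adjusted p = 3.91e-08).

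Genes around CD47 changed in both directions. THBS1, thrombospondin-1 and a secreted partner of CD47, fell to 0.564 times WT in A375 TFE3KO and rose 1.93-fold in DKO clone 13 and 1.36-fold in clone 3. The THBS1 effect in SKMEL28 minus that in A375 was 1.54 on the log2 scale (adjusted p = 3.03e-10). QPCT, a paralog of the glutaminyl cyclase that modifies CD47, fell to 0.2 times MITFKO in clone 13 and 0.572 times in clone 3. CD24, another signal to phagocytes, was 0.604 ± 0.188 CPM in A375 TFE3KO and 4.89 ± 0.563 CPM in WT, a fall to 0.12 times WT. The complement regulator CD55 fell to 0.572 and 0.498 times MITFKO in clones 13 and 3. Of the other 13 genes tested on this list in A375, 2 rose and 5 fell, and of 14 in the DKO clones averaged, 4 rose and 5 fell. The share called was 53.8% in A375 and 64.3% in DKO, against 43.3% and 41.1% of all genes.

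PVR fell in A375 TFE3KO, with 99.0, 99.2 and 100.6 CPM against 130.2, 129.2 and 131.1 CPM in WT, or 0.766 times WT (adjusted p = 2.43e-10). In SKMEL28 it stood at 152.6, 112.6 and 142.2 CPM in DKO clone 13 and 165.1, 162.9 and 167.5 CPM in DKO clone 3, against 150.7, 164.7 and 165.6 CPM in MITFKO. Replicate 2 of clone 13 was the lowest SKMEL28 library with an edit, and both clones overlapped MITFKO. Clone 13 fell to 0.846 times MITFKO (adjusted p = 0.0236). This call was lost without clone 13 replicate 2 (log2 -0.12, adjusted p = 0.0884), without MITFKO replicate 2 (0.0785) or 3 (0.0895), without replicate 2 of both clones (0.0641) and in a fit of those groups alone (0.0504). Clone 3 differed from MITFKO by log2 0.04 (95% interval -0.13 to 0.21). The SKMEL28 effect minus the A375 effect was 0.29 ± 0.09 on the log2 scale (adjusted p = 0.0127). PVR shares its locus with CEACAM19, at most 1.85 CPM, and MIR4531, and whether counting used strand is not given in the sources used here.

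NECTIN2 fell in A375 TFE3KO and rose in 1 DKO clone. It stood at 27.8, 23.2 and 29.2 CPM in A375 TFE3KO, against 46.4, 42.4 and 42.7 CPM in WT, and fell to 0.611 times WT (adjusted p = 5.7e-11). In SKMEL28 it stood at 41.6, 43.9 and 41.9 CPM in DKO clone 13 and 45.3, 48.2 and 52.7 CPM in DKO clone 3, against 36.7, 39.6 and 41.3 CPM in MITFKO. Both clones lay above the MITFKO libraries, by less than 1 CPM for the closest library of clone 13. Clone 3 rose 1.24-fold (adjusted p = 0.0064, lost without clone 3 replicate 3 at 0.0505), and clone 13 gave log2 0.12 (95% interval -0.06 to 0.29). The mean of both clones gave log2 0.21 (adjusted p = 0.0246), a call lost without MITFKO replicate 1 (0.155) or 2 (0.0784) or clone 3 replicate 3 (0.0648). The difference between the effects in the lines was 0.93 ± 0.11 on the log2 scale (adjusted p = 1.82e-07).

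Among the other genes of this family, CADM4, CADM1 and NECTIN1 rose in A375 TFE3KO and in DKO clone 13, while AFDN, which encodes the junction protein afadin, fell in A375 TFE3KO. CADM4, a cell adhesion molecule, averaged 254.9 ± 14.5 CPM in A375 TFE3KO and 43.2 ± 4.30 CPM in WT, a 5.92-fold rise, and rose 1.19-fold and 1.44-fold over MITFKO in DKO clones 13 and 3. CADM1 rose 1.35-fold in A375 and 1.36-fold in DKO clone 13. NECTIN1 rose 1.39-fold in A375 and 1.59-fold in clone 13, and was not called in clone 3. AFDN fell to 0.778 times WT in A375 TFE3KO and to 0.829 times MITFKO in clone 3. NECTIN3 fell to 0.812 times WT in A375 TFE3KO and rose 1.39-fold in clone 3. Of the other 7 genes tested on this list, 4 rose and 2 fell in A375, and 4 rose and 1 fell in the DKO clones averaged. The share called was 85.7% in A375, against 43.3% of all genes, and 71.4% in DKO, against 41.1% of all genes.

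LGALS3 rose in both lines, at very different levels. It stood at 28.3, 28.4 and 26.5 CPM in A375 TFE3KO, against 19.6, 20.8 and 19.0 CPM in WT, a 1.41-fold rise (adjusted p = 4.91e-06). In SKMEL28 it stood at 584.5, 713.0 and 655.6 CPM in DKO clone 13 and 648.4, 703.7 and 636.1 CPM in DKO clone 3, against 518.9, 554.6 and 577.5 CPM in MITFKO, rising 1.18-fold (adjusted p = 0.00597) and 1.20-fold (adjusted p = 0.00387). The groups did not overlap in either line. The SKMEL28 effect minus the A375 effect was -0.23 on the log2 scale (95% interval -0.42 to -0.04, adjusted p = 0.0501), a value that fell on the other side of 0.05 in 8 of 20 alternatives, among them the fit without DKO clone 13 replicate 2 (log2 -0.26, adjusted p = 0.00452). LGALS1, galectin-1, rose in both lines too, by 0.48 on the log2 scale in A375 TFE3KO, and 1.99-fold and 1.96-fold in DKO clones 13 and 3.

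LGALS9 could not be tested. The summed counts were 5 in A375 TFE3KO, 4 in A375 WT, 2 in DKO clone 13, 1 in each of DKO clone 3 and MITFKO, and 0 in SKMEL28 WT, which allows up to 0.126 CPM. Its near-identical copies LGALS9B and LGALS9C can share reads with it, so these counts are uncertain.

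**Figure D3:**
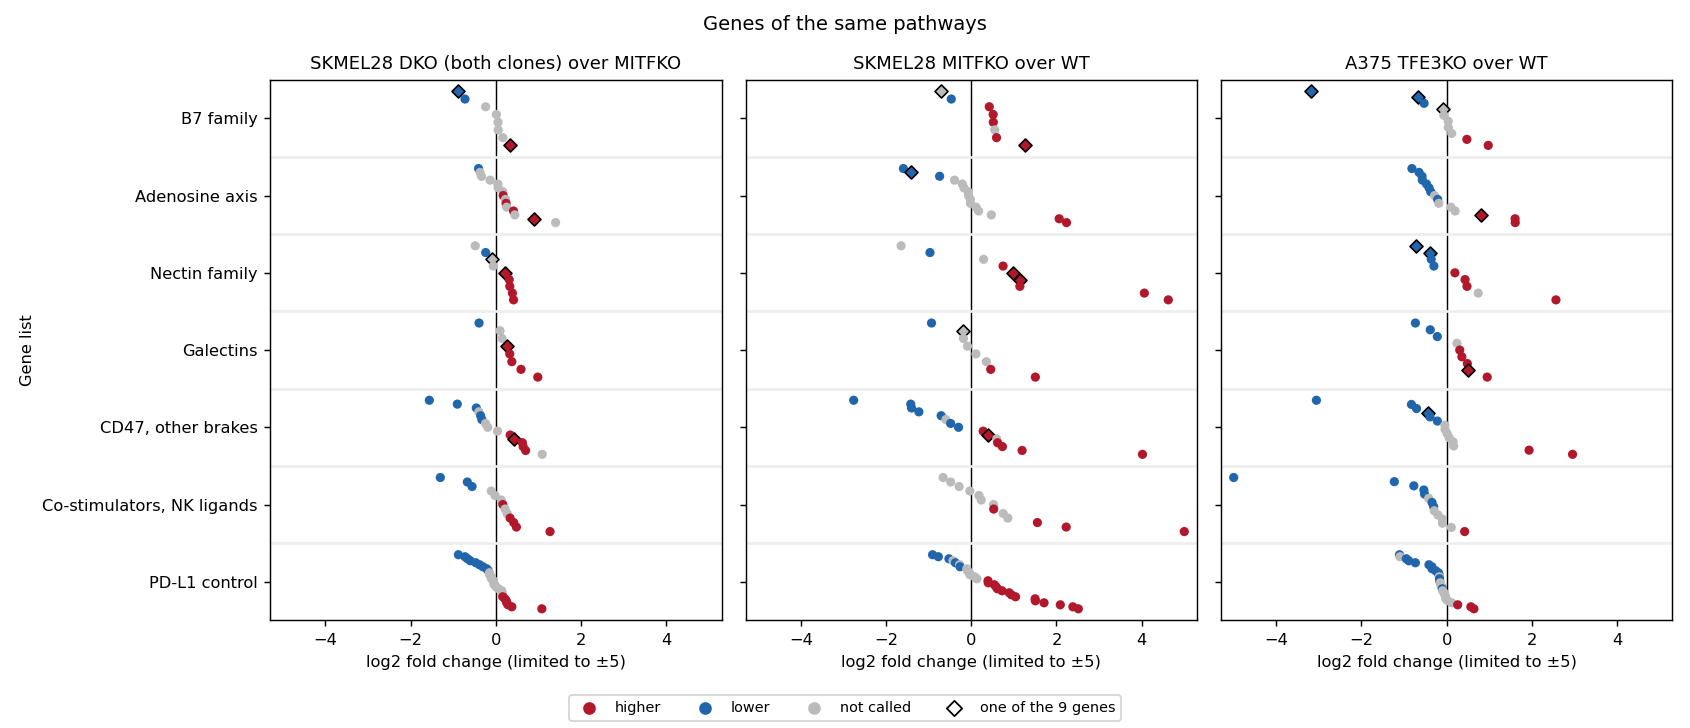
Log2 fold changes of the genes tested on 7 lists around these ligands in 3 comparisons, DKO clones averaged over MITFKO, MITFKO over SKMEL28 WT and A375 TFE3KO over WT. Red and blue points were called higher and lower, grey points were not called, diamonds are members of the 9, and the few values beyond the axis limits are drawn at the limit.

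Of the genes that control CD274, 13 of 28 tested fell and 3 rose in A375 TFE3KO, while 22% of all genes fell and 21.3% rose, with a median log2 fold change of -0.16 against 0.003 over all genes. IRF1, the interferon-responsive activator of CD274, averaged 17.4 ± 1.64 CPM in TFE3KO and 33.4 ± 2.96 CPM in WT, a fall to 0.518 times WT. JUN fell to 0.464 times and SOCS3 to 0.539 times WT. In the DKO clones averaged, 9 of 28 fell and 7 rose, while 20.7% of all genes fell and 20.4% rose. IRF1 was not called in either clone, with log2 -0.12 (95% interval -0.41 to 0.17) in clone 13 and -0.09 (95% interval -0.38 to 0.21) in clone 3. JAK2, a kinase of the interferon gamma receptor, fell to 0.506 and 0.584 times MITFKO in clones 13 and 3, while SOCS3, its feedback inhibitor, rose 1.96-fold and 2.27-fold. The SOCS3 effect in SKMEL28 minus that in A375 was 1.98 on the log2 scale (adjusted p = 3.67e-12).

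Of the co-stimulators and natural killer cell ligands, 7 of 14 genes tested fell in A375 TFE3KO and 1 rose, while 22% of all genes fell and 21.3% rose. ICAM1, an adhesion ligand of lymphocyte integrins, fell to 0.427 times WT, and TNFSF9, the ligand of the co-stimulator 4-1BB, to 0.586 times WT. TNFSF14 was at 0 in all 3 A375 TFE3KO libraries and averaged 1.81 ± 0.906 CPM in WT. In the DKO clones averaged, 5 of 13 genes rose and 3 fell (20.4% and 20.7% of all genes), with ICAM1 at 0.628 times MITFKO.

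The clones of the double knockout differed in 3 of 7 members, against 27.6% of all genes called (14.3% higher and 13.4% lower). Clone 13 had higher NT5E (log2 0.63 ± 0.06) and CD276 (log2 0.16 ± 0.05, adjusted p = 0.0316) and lower PVR (log2 -0.28 ± 0.08, adjusted p = 0.0156). The CD276 and PVR calls were both lost without DKO clone 3 replicate 1 (adjusted p = 0.0883 and 0.0505) or replicate 3 (0.143 and 0.058), which left NT5E as the 1 call; CD276 was also lost without clone 13 replicate 3 (0.0731) and in a fit of these clones alone (0.0553). Without clone 13 replicate 2, PVR stood at log2 -0.16 and was still called. The median of the 968 chromosome 19 genes tested was 0.21 on the log2 scale between these clones, in the direction opposite to PVR, which lies on that chromosome.

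The line with the MITF edit alone differed from SKMEL28 WT in 5 of 7 members, 4 higher and 1 lower, against 48.6% of all genes called (25.2% higher and 23.4% lower). The comparison rests on 1 WT library, assumed to vary like the other groups, so MITF editing, isolation of the line and that single culture cannot be told apart. CD276 was 278.6, 283.4 and 296.0 CPM in MITFKO and 122.4 CPM in WT, a 2.42-fold rise (adjusted p = 2.13e-11). NECTIN2 rose 2.19-fold (adjusted p = 2.09e-07), PVR 1.99-fold (adjusted p = 2.03e-06) and CD47 1.31-fold (adjusted p = 0.00747). Beside the rise of PVR and NECTIN2, the median of all chromosome 19 genes was 0.30 on the log2 scale, and its part in the result was not tested.

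NT5E behaved differently from these ligands. It fell to 0.377 times WT, at 49.2 ± 1.63 CPM in MITFKO against 135.0 CPM in WT (log2 -1.41 ± 0.09, adjusted p = 7.02e-12). The median of the 637 chromosome 6 genes tested, where NT5E lies, was -0.38 in the same comparison, and its part in the result was not tested. CD274 gave log2 -0.72 (95% interval -1.65 to 0.21) and LGALS3 log2 -0.19 (95% interval -0.39 to -0.000383, adjusted p = 0.092). In a fit of these groups alone both were called, with adjusted p = 0.0235 for CD274 and 0.0019 for LGALS3. Relative to the same WT library, the mean of both DKO clones had 4 members higher and 2 lower, against 52.9% of all genes called (26.5% higher and 26.4% lower). CD274 stood at 0.33 times, NT5E at 0.706 times and CD276 at 3.05 times WT. For NT5E this is log2 -0.50, beside a chromosome 6 median of -0.40 in the same comparison, whose part was not tested. These comparisons share the WT library, and that of DKO with MITFKO shares the MITFKO libraries, so the values are given side by side only.

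**Figure D4:**
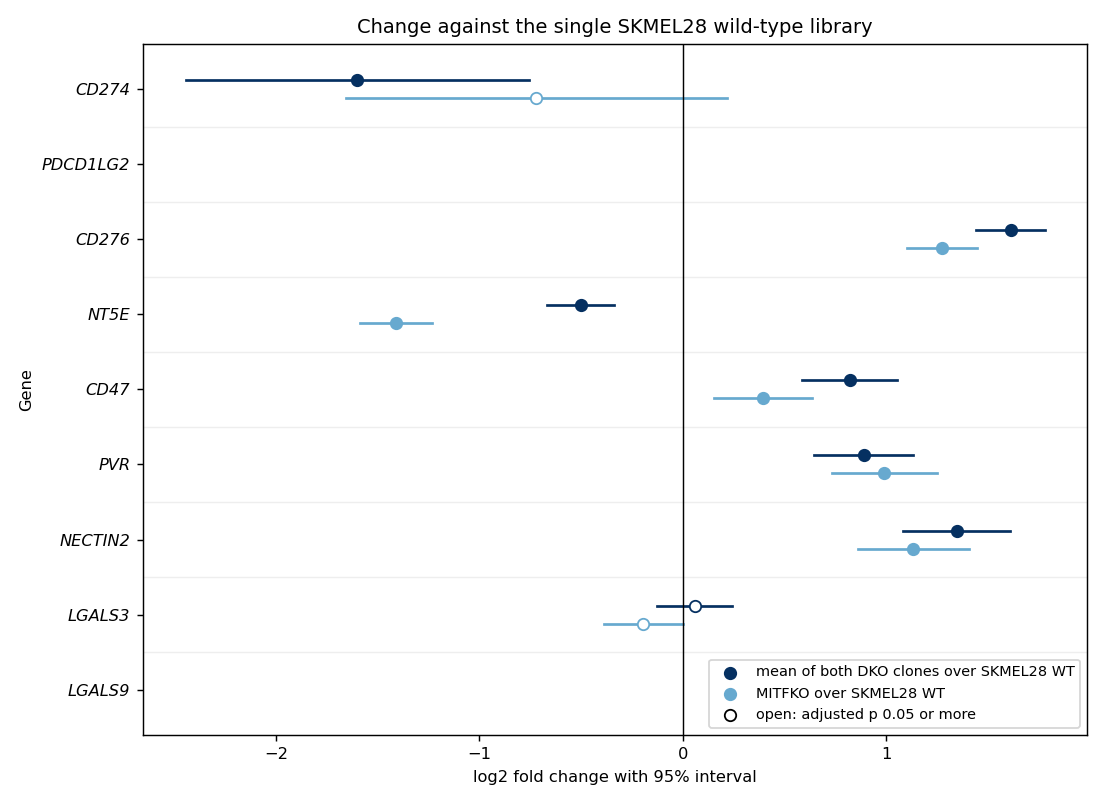
Log2 fold change, with 95% intervals, of the mean of both DKO clones and of MITFKO over the single SKMEL28 WT library. Filled points were called. CD276, CD47, PVR and NECTIN2 lie to the right of 0 and NT5E to the left in both comparisons.

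Around these members, MITFKO had ADORA2B, an adenosine receptor, at 79.8 ± 1.43 CPM against 19.7 CPM in WT, a 4.18-fold rise, and THBS1 16.2-fold higher. CEACAM1, an inhibitory ligand of T and natural killer cells, fell to 0.378 times WT. Of the genes that control CD274, 15 of 28 rose and 5 fell, while 25.2% of all genes rose and 23.4% fell, with FOSL1 5.71-fold and JUN 5.22-fold higher. ICAM1 rose 4.68-fold, and CADM4 rose 24.7-fold.

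The unedited lines themselves differed in 7 of 8 members, 5 higher and 2 lower in A375, against 67.6% of all genes called (34.1% higher and 33.6% lower), in a comparison that again rests on 1 SKMEL28 library and in which line and medium cannot be told apart. The 5 include PDCD1LG2, which had enough counts for a test only through A375 WT, where it was high. LGALS3 averaged 19.8 ± 0.897 CPM in A375 WT and 650.8 CPM in SKMEL28 WT, a 32.0-fold lower level in A375, and NT5E stood at 0.353 times SKMEL28 WT. CD47 was 2.46-fold, NECTIN2 2.44-fold, PVR 1.60-fold and CD276 1.42-fold higher in A375 WT. The median of the 1078 chromosome 19 genes tested, where PVR and NECTIN2 lie, was 0.52 on the log2 scale. Its part in the result was not tested. CD274 gave log2 -0.03 (95% interval -0.88 to 0.83).

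Groups were ordered by the mean level of each gene. CD276 ran in the order DKO clone 13, DKO clone 3, MITFKO, A375 WT, A375 TFE3KO and SKMEL28 WT, and no neighbours in that order overlapped. For CD47, A375 TFE3KO and both DKO clones overlapped at 58.6, 57.2 and 55.6 CPM, between A375 WT at 78.8 CPM and MITFKO at 41.9 CPM. NT5E ran in the order SKMEL28 WT, DKO clone 13, A375 TFE3KO, DKO clone 3, MITFKO and A375 WT, and the last pair overlapped. PVR was highest in DKO clone 3 and lowest in SKMEL28 WT, with overlaps down to A375 WT, and NECTIN2 was highest in DKO clone 3 and lowest in SKMEL28 WT, with overlaps down to DKO clone 13. For LGALS3 both DKO clones and SKMEL28 WT overlapped, and all SKMEL28 libraries lay above all A375 libraries. For CD274, each group overlapped the next. Per kilobase of annotated exon, LGALS3 had the highest level among the 9 genes in SKMEL28 (387.6 CPM per kb in MITFKO, with CD276 next at 64.2), whereas in A375 WT CD276 at 38.0 and PVR at 37.0 were above CD47 at 14.9 and LGALS3 at 13.9 CPM per kb. Exon lengths were of GENCODE 29, a different build from the counts.

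For likeness of pattern, each member's log2 profile over the 6 group means was compared with 16223 other genes by root-mean-square difference, in libraries that all genes share. RIOK3 was closest to PVR (0.05), TLCD3A to CD47 (0.09), HOXC13-AS to NECTIN2 (0.07) and TMEM189 to CD276 (0.11). LGALS3 was most like ARRDC4 (0.16), CD274 like ANKRD20A12P (0.14), PDCD1LG2 like SH3RF2 (0.20) and NT5E like CNDP1 (0.20), which itself averaged at most 0.23 CPM. The next closest were MARCHF9, DND1, SHISA5, SYTL4, HMGA1P7, HERC2P2, ADGRG5 and LRRC8C-DT in the same order of members. ANKRD20A12P averaged at most 0.76 CPM and LRRC8C-DT at most 1.1 CPM. SH3RF2 and ADGRG5 were at 0 in every SKMEL28 group, and HMGA1P7 was at 0 in A375 WT. Likeness to CNDP1 and to these genes rests on few counts.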

How the data were processed

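The deposited values were whole-number read counts per gene symbol, 1 column per library, made by the authors. STAR, featureCounts, DESeq2 and hg19 are listed, without version, in the submitters' processing notes. No source used here gives strand, annotation release or the treatment of reads with several matches. From the counts, CPM were computed here with TMM scaling, and edgeR 4.0.16 (R 4.3.3) served for testing (filterByExpr by group, robust quasi-likelihood F-test, Benjamini-Hochberg over all genes of a comparison, called at adjusted p under 0.05). The models held the 10 SKMEL28 libraries (14605 genes), the 6 A375 libraries (14012), 15 libraries without SKMEL28 WT for the difference between the TFE3 effects (15093) and all 16 for A375 WT against SKMEL28 WT (16248). Standard errors were derived from the F statistic, and intervals are 95%. Alternatives were DESeq2 1.42.0, RLE scaling, no filter on low counts, other sets of libraries, a replicate block and leaving out libraries.

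The 9 genes and the 11 gene lists were chosen with earlier results of these data known. From each list, up to 4 called genes with the largest change and at least 1 CPM in the higher group could be named, together with TFE3, MITF and the 2 genes most like each member. List genes named in a clone or line for comparison, and SOX10, TYR and PTPRC, were added. Libraries were treated as unpaired in the reported fits, and a replicate block was run as an alternative. Same-numbered libraries of different groups deviated together with r from -0.0285 to 0.0823. Between the DKO clones r ran from 0.0167 to 0.0823, the highest for replicate 2. Whether same-numbered libraries were handled together was not tested. No 2 replicates agreed within sampling noise (lowest chi-square per degree of freedom 3.20), and DKO clone 13 replicate 2 stood farthest from its group (21.9 and 23.3). On simulated counts, the fit recovered from 89% to 100% of 100 genes changed by 1 or 2 on the log2 scale. False genes made up from 2.97% to 9.57% of the calls. The lowest recovery and the highest false share were both for A375 WT against SKMEL28 WT. The simulation gave every gene and library the same spread, changed no gene of very low count and held no outlying library. These shares therefore need not hold for the measured counts, such as those of CD274 or of DKO clone 13 replicate 2. One promoter motif that had been searched is not reported here.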

Additional observations from a re-analysis of the deposited data

Results flagged for a closer look

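The effect of TFE3 editing differed between the lines by a test of the difference itself in 4 genes, with SKMEL28 (both DKO clones over MITFKO) minus A375 (TFE3KO over WT) given on the log2 scale. The difference was 0.93 for NECTIN2, 0.86 for CD47, 0.43 for CD276 and 0.29 for PVR. The effects being compared were 0.21 and -0.71 for NECTIN2, 0.42 and -0.43 for CD47, 0.34 and -0.08 for CD276, and -0.10 and -0.38 for PVR, each with SKMEL28 given before A375 and fitted in its own line. The lines also differ in medium, in the MITF edit and in the level of MITF mRNA, which cannot be told apart from the line.

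The DKO clones, which share the MITFKO line, differed in 3 genes. Clone 13 minus clone 3 was 0.63 for NT5E, 0.16 for CD276 and -0.28 for PVR on the log2 scale. TFE3 mRNA averaged 46.8 ± 3.18 CPM in clone 13 and 9.62 ± 1.83 CPM in clone 3, and the part of that difference in the result was not tested.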

How the results depend on the processing

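The counts of called members kept within 1.5 times of their values under DESeq2, RLE scaling, no filter, other sets of libraries and without replicate 2 of both DKO clones. Leaving out 1 library at a time gave from 1 to 3 called members between DKO clones 13 and 3. NT5E, CD47, PVR, NECTIN2 and LGALS3 kept their direction and their call in A375 TFE3KO against WT under every alternative run. So did NT5E, CD276, CD47 and LGALS3 in each DKO clone against MITFKO. PDCD1LG2 also kept its call in A375. It had enough counts for a test only through the WT libraries, where it was high, so this adds no support. Directions turned for small values that were not called: CD274 between DKO clones 13 and 3 (0.17 on the log2 scale without replicate 2 of both clones), LGALS3 in DKO against SKMEL28 WT (-0.00348 under the same setting) and CD274 between A375 WT and SKMEL28 WT (0.0126 with DESeq2 and 0.0124 with RLE scaling). With 1 library left out, PVR in clone 3 against MITFKO ran from -0.00881 to 0.0565, CD47 and LGALS3 between clones 13 and 3 from -0.00859 to 0.12 and from -0.0913 to 0.0576, CD274 in the difference between lines from -0.47 to 0.0719, and CD274 between the WT lines from -0.27 to 0.13. With the replicate block, 5 and 6 members were called in DKO clones 3 and 13, 3 between the clones, 7 in A375 and 5 in the difference between lines, where LGALS3 was added (adjusted p = 0.0213). The block could not be fitted for comparisons with SKMEL28 WT, whose number no other group shares. A model of all 16 libraries is the one reported for A375 WT against SKMEL28 WT, and the groups compared are the whole A375 model. CD274 had from 18 to 151 counts per library and PDCD1LG2 at most 46. How much of their error comes from depth and how much from the spread between flasks was not tested.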

Other observations

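CD96, a receptor of PVR that is known from T and natural killer cells, was read from all A375 libraries, at 180.5, 170.6 and 188.4 CPM in A375 TFE3KO and 157.9, 158.1 and 156.6 CPM in A375 WT. In SKMEL28 it was at most 1.76 CPM. It accounted for nearly all of the summed level of 19 lymphocyte markers and checkpoint receptors in A375, which was between 173.7 and 192.2 CPM in TFE3KO and between 158.4 and 160.5 CPM in WT, while the leukocyte gene PTPRC was at 0 in all of them. ZBED2, which shares the CD96 locus in RefSeq, averaged at most 0.139 CPM. The pseudogenes NECTIN2P1 and NT5C3AP2 share that locus too, but are not among the counted symbols, so their reads could not be examined. CD96 was looked at after its values had been seen.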
